A study of Mus musculus with 20 samples.

Results

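The difference between Xiap-/- and wild-type (WT) mice that was common to 2 kinds of housing was measured in the transcripts of small intestinal crypts, taking in all 20 of the 20 libraries, each taken as 1 mouse. Crypts are the pits of the intestinal lining where stem cells divide and where Paneth, goblet and absorptive cells arise. The mice were C57BL/6 and fell into 4 groups as the sample titles give them. Housed apart, with each genotype kept on its own, there were 6 WT and 4 Xiap-/- mice, and after 4 weeks of co-housing there were 5 WT and 5 Xiap-/- mice. The labels name no agent, and they give neither age, sex, cage nor the deleted part of Xiap. For each gene the genotype difference was taken within each housing and the 2 differences were averaged with equal weight, so that a difference in level between the housings does not enter. Of 23020 genes in the table, 9521 had a mean of at least log2 of 10 over the 20 libraries and were tested. All levels and differences below are on the log2 scale of the deposited values, a difference is always Xiap-/- minus WT, and a gene is said to have risen or fallen where its averaged difference had a Benjamini-Hochberg adjusted p under 0.05 in limma over all 9521 genes.

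XIAP is a ubiquitin ligase that blocks caspases, the proteases of apoptosis. It also ubiquitinates RIPK2 downstream of NOD1 and NOD2, receptors of bacterial wall fragments, which leads to activation of the transcription factor NF-kB. In the intestine, Paneth cells secrete antimicrobial peptides, and absorptive cells secrete lectins such as REG3B and REG3G when microbes and cytokines that act through STAT3 stimulate them. Housing can change the microbes of mice, since mice that share a cage exchange them, and microbes were not measured here.

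The libraries had features that touch every result. Paneth cells were represented by the alpha-defensin Defa24 (mean 14.17), and of 8 hepatocyte markers in the table only 2 passed the minimum, which is given here because a sentence in the labels on RNA extraction speaks of liver. The WT mice housed apart were not a tight group, since 5 of the 6 were nearest to another group: replicates 1, 2 and 4 to the co-housed WT mice, replicate 3 to the co-housed Xiap-/- mice and replicate 5 to the Xiap-/- mice housed apart. Replicate 5 was the farthest from its group. Its deviation from the mean of all libraries correlated across genes with that of the Xiap-/- mice housed apart (r = 0.636) and was opposed to that of the other WT mice housed apart (r = -0.413). Replicate 4 was opposed to its own group too (r = -0.278), and correlated with the co-housed WT mice (r = 0.571). For replicates 1 and 3 even the nearest group was only weakly correlated (r = 0.020 and 0.093). Replicate 1 was nearly as close to its own group (r = 0.010). In all, 13 of 20 libraries were nearest to their own group and 17 of 20 to a group of their own genotype. The depth of the libraries is unknown. As a stand-in, the percentage of rare genes that rose above their own plateau was 7.71 ± 3.69 (SD) in WT and 17.1 ± 10.5 in Xiap-/- mice housed apart, and 8.74 ± 1.47 and 8.77 ± 2.77 in co-housed mice. Its averaged difference was 4.71 percentage points (exact permutation test within housing, two-sided, p = 0.0524). The part of this measure in the results was tested only by adding it to the model: 6 genes were then called, all 196 called without it kept their sign, and the median ratio of their sizes with it to those without it was 0.921. The 6 were Pim1, Ptk6, Ces1d, Aqp8, Hspa1b and Gm3776. Values without WT replicate 5 housed apart stand beside the lists and the main genes. In the stand-in for depth that library had 14.9, the highest of the WT mice housed apart, where the next was 7.55. The Xiap-/- mice housed apart ran from 9.55 to 32.1. Without that library the genotypes housed apart thus did not overlap in this measure, and its part in the counts without that library was not tested.

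The Xiap transcript itself was lower in the Xiap-/- mice housed apart and not separated in the co-housed mice. Xiap (chrX:42059679-42109656, plus strand, build GRCm38) read between 6.56 and 7.08 in the 6 WT mice housed apart (median 6.79), and 6.48, 6.37, 6.43 and 6.25 in the 4 Xiap-/- mice housed apart, and these groups did not overlap, with WT replicate 5 the lowest of the 6 WT mice. It read 6.76, 6.84, 6.80, 6.60 and 6.36 in the co-housed WT mice and 6.91, 6.68, 6.66, 6.56 and 6.29 in the co-housed Xiap-/- mice, ranges that overlapped almost entirely. The averaged difference was -0.24 ± 0.08 (SE), from -0.43 housed apart and -0.05 co-housed (exact permutation test within housing, two-sided, p = 0.0186, over 52920 arrangements; limma adjusted p = 0.0753). The reads come from the 3' ends of transcripts and the labels do not say which part of the gene was deleted, so this transcript can remain in a deleted mouse and does not check the labels of the co-housed groups, which are used as given.

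The averaged difference was called for 196 of 9521 genes (2.06%), of which 106 rose (1.11%) and 90 fell (0.945%). Their sizes ran from 0.20 to 1.02, with a median of 0.31, while the median over all tested genes was -0.0016. An unadjusted p under 0.05 was reached by 1953 genes. In each housing alone fewer genes passed, 43 among mice housed apart (0.452%) and 3 among co-housed mice (0.0315%), and 160 of the 196 passed in neither. The median SE was 0.068 for the average against 0.098 and 0.096 for the single housings. All 196 had the same sign in both housings, against 62.5% of all tested genes, a share that a high average itself favours. A gene is called alike here where, in addition, the smaller of its 2 differences was at least 0.5 of the larger. That held for 132 of the 196, of which 70 rose and 62 fell. Of the other 64, 48 had the larger difference in mice housed apart and 16 in co-housed mice. A difference between the housings in the genotype difference (the interaction) had an unadjusted p under 0.05 for 671 tested genes and for 29 of the 196. It was so for 0 of the 132, which choosing them for 2 similar differences favours. An adjusted p under 0.05 was reached by 1 gene, Hspa1b. Without WT replicate 5 housed apart, 956 of the 9521 genes were called (525 rose and 431 fell), and all 196 were among them. List counts given below over all 20 libraries are to be read against 2.06%. Those without that library are to be read against the larger share of 956 in 9521. No excess of a list over these shares was tested. In bulk tissue, fewer cells of a type and less RNA per cell cannot be told apart.

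**Figure D1:**
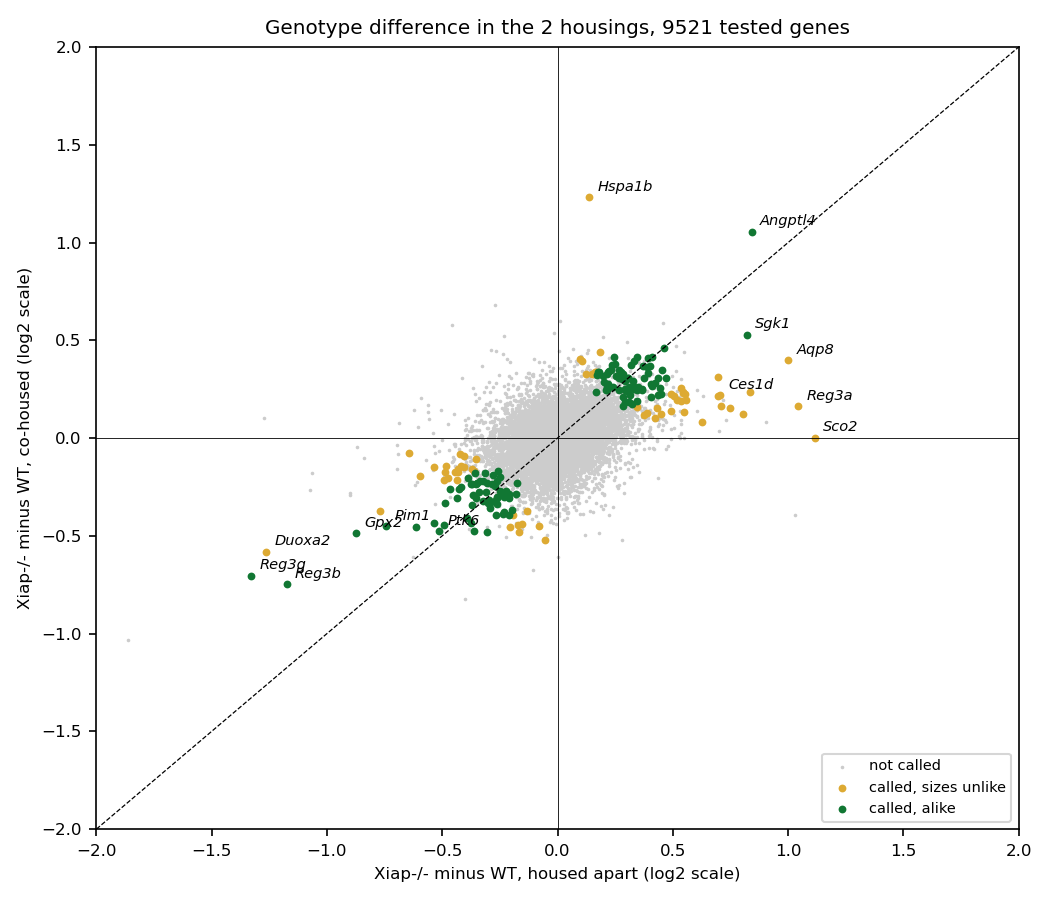
Genotype difference of each of the 9521 tested genes in mice housed apart (horizontal, log2 scale) and in co-housed mice (vertical, log2 scale), with the line of equality dashed. Green points are the 132 genes called in the average and alike in both housings, yellow points the 64 called genes whose 2 differences were unlike in size, and grey points genes that were not called.

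The largest falls were those of 2 secreted lectins that bind and kill bacteria, Reg3g and Reg3b, both highly abundant in these crypts. Reg3b (chr6:78370657-78373466, plus strand) read between 12.28 and 14.25 in the 6 WT mice housed apart (median 13.44), and 11.91, 11.97, 12.59 and 12.02 in the 4 Xiap-/- mice housed apart. It read 13.54, 13.66, 13.43, 13.91 and 13.73 in the co-housed WT mice and 12.52, 13.31, 13.15, 12.86 and 12.70 in the co-housed Xiap-/- mice. The groups overlapped in mice housed apart, where WT replicates 5 and 6 were the lowest of their group, and did not overlap in co-housed mice. The averaged difference of Reg3b was -0.96 ± 0.19 (SE), from -1.17 housed apart and -0.75 co-housed (limma adjusted p = 0.0195), and -1.02 without WT replicate 5 housed apart. Reg3g (chr6:78466269-78468872, minus strand) read between 11.73 and 13.77 in the 6 WT mice housed apart (median 12.96), and 11.40, 11.13, 11.81 and 11.31 in the 4 Xiap-/- mice housed apart. It read 13.08, 13.25, 12.97, 13.23 and 13.09 in the co-housed WT mice and 12.12, 12.77, 12.76, 12.26 and 12.19 in the co-housed Xiap-/- mice. Here too the genotypes were separate in co-housed mice and overlapped in mice housed apart. On average Reg3g differed by -1.02 ± 0.22 (SE), from -1.33 housed apart and -0.70 co-housed (limma adjusted p = 0.0297). Its call held in 14 of 20 fits that left out 1 library, with adjusted p up to 0.0676, while that of Reg3b held in 20 of 20. The 2 genes are close relatives in 1 cluster, and how the authors' counting split reads between them is not given in the sources used here.

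Of the other tested members of the Reg family, 2 rose. Reg3a rose by 0.60 (adjusted p = 0.0477) and Reg4, made by enteroendocrine and other secretory cells, by 0.46 (adjusted p = 0.0194), and in both the rise was larger in mice housed apart (1.04 housed apart and 0.16 co-housed for Reg3a, 0.69 housed apart and 0.22 co-housed for Reg4). The call of Reg3a held in only 2 of 20 fits that left out 1 library, with adjusted p up to 0.1, and that of Reg4 in 20 of 20. Of the 5 tested Reg lectins, 2 rose and 2 fell. The fall of the lectins was accompanied by Duoxa2, which brings the hydrogen peroxide-producing oxidase DUOX2 to the cell surface, at -0.92 ± 0.20 (SE) from -1.26 housed apart and -0.58 co-housed (limma adjusted p = 0.0301, held in 12 of 20 such fits). Duoxa2 was the only called gene among 12 tested genes of a list of epithelial genes that respond to microbes, 10 of which were below 0 (median -0.16). Its partner Duox2 and the acute phase gene Saa1, chosen after their values were seen, had large differences that did not pass, -0.67 ± 0.18 (SE) and -1.45 ± 0.39 (SE, limma adjusted p = 0.0651 and 0.0651). Saa1 varied more, with an SD of 1.27 over the WT mice housed apart. Of the 12, 4 fell and 1 rose without WT replicate 5 housed apart.

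Stat3 and 2 of its known targets fell, with both housings below 0. STAT3 is activated by receptors of cytokines such as interleukin 22, and among its known targets are Pim1, a kinase that promotes survival, and Socs3, an inhibitor that ends the signal. Pim1 (chr17:29490753-29496112, plus strand) had the smallest p of the genes called alike. It read between 5.63 and 6.23 in the 6 WT mice housed apart (median 6.11), and 5.47, 5.33, 5.32 and 5.00 in the 4 Xiap-/- mice housed apart. It read 5.88, 6.18, 6.07, 5.75 and 5.51 in the co-housed WT mice and 5.39, 5.40, 5.52, 5.41 and 5.40 in the co-housed Xiap-/- mice. No Xiap-/- mouse housed apart reached the lowest WT mouse, and in co-housed mice 1 Xiap-/- value (5.52) lay just above the lowest WT value (5.51). The averaged difference of Pim1 was -0.60 ± 0.08 (SE), from -0.74 housed apart and -0.45 co-housed (limma adjusted p = 6.24e-05), and it was -0.64 without WT replicate 5 housed apart.

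Socs3 (chr11:117966079-117970047, minus strand) read between 4.16 and 4.54 in the 6 WT mice housed apart (median 4.46), and 3.82, 3.94, 4.09 and 3.88 in the 4 Xiap-/- mice housed apart. It read 4.31, 4.23, 4.95, 4.51 and 4.67 in the co-housed WT mice and 3.90, 4.14, 4.65, 3.99 and 4.33 in the co-housed Xiap-/- mice. The groups were separate in mice housed apart and overlapped in co-housed mice, where WT replicate 3 and Xiap-/- replicate 3 were the highest of their groups. On average Socs3 differed by -0.41 ± 0.09 (SE), from -0.49 housed apart and -0.33 co-housed (limma adjusted p = 0.0195). Stat3 itself differed by -0.29 ± 0.07 (SE), from -0.35 housed apart and -0.24 co-housed (limma adjusted p = 0.0234), and its call held in 17 of 20 fits that left out 1 library. Pim1, Socs3 and Stat3 were the called members among 14 tested genes of the list for STAT3 and cytokine response, with a median of -0.08 and 10 members below 0.

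The promoters of these genes were searched for the letters TTCNNNGAA, to which STAT proteins are known to bind, in the 250 bases before each RefSeq start (build GRCm38.p6). The motif reads alike on both strands and was the only one searched. Of the 7069 tested genes with a window, 7.0% held it, as did 8.2% of the 61 called genes that fell and 12.7% of the 71 that rose. Among the genes alike in both housings it was in 11.4% of the 44 that fell and 16.7% of the 42 that rose. These shares rest on 5 to 9 genes with a match, and their difference from that of all genes was not tested. Reg3b and Socs3 each held 1 match, 129 and 154 bases before the start. Of the other named genes that were called, Muc13, which fell, also held it. So did Sgk1, Tsc22d1, Tsc22d3, Akr1c19 and Gm3776, which rose. No match was found in the windows of Reg3g, Pim1 and Stat3. The stretches around the matches in Reg3b and Socs3 are shown with the match in capitals. The stretch of Reg3g at the same distance from its start as that of Reg3b is shown too. The window of Reg3b holds the letters and that of Reg3g does not, and whether the letters bear on either fall was not tested. None of the 3 stretches overlaps an exon of GENCODE M21, and those of Reg3b and Socs3 each lie in an intron of a transcript that starts further upstream.
Reg3b, chr6:78370716-78370804, plus strand: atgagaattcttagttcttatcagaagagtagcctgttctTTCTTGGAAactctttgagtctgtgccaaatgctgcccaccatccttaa
Reg3g, chr6:78468955-78469043, minus strand: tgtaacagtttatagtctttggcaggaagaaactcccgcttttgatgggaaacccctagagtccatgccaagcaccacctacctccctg
Socs3, chr11:117969472-117969560, minus strand: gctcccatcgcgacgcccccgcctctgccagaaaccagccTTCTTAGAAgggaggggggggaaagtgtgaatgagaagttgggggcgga

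Of the signalling chain in which XIAP acts, 3 genes fell. Of 25 tested genes of the list for NOD1, NOD2, RIPK2 and NF-kB, 3 fell and 0 rose, with a median of -0.09 and 19 members below 0. The 3 were Nfkbia, which encodes the inhibitor that NF-kB itself induces, at -0.33 ± 0.09 (SE, limma adjusted p = 0.0365), Nfkbiz, a nuclear regulator of NF-kB, at -0.29 ± 0.07 (SE, limma adjusted p = 0.0317), and Tab2, an adaptor of the kinase TAK1, at -0.27 ± 0.07 (SE, limma adjusted p = 0.0476). Nfkbia read between 8.31 and 9.04 in the 6 WT mice housed apart (median 8.51), and 8.20, 8.40, 8.23 and 8.05 in the 4 Xiap-/- mice housed apart. It read 8.46, 8.74, 8.57, 8.33 and 8.08 in the co-housed WT mice and 7.95, 8.17, 8.41, 8.02 and 8.09 in the co-housed Xiap-/- mice. Its genotypes overlapped in both housings, by 1 Xiap-/- mouse housed apart and by several co-housed mice. The calls of Nfkbia, Nfkbiz and Tab2 held in 9 of 20, 11 of 20 and 4 of 20 fits that left out 1 library. Outside the list, Tifa, an adaptor that links a bacterial sugar to NF-kB, had an averaged difference of -0.53 ± 0.13 (SE) from -0.61 housed apart and -0.45 co-housed (limma adjusted p = 0.0365), a call that held in 7 of 20 such fits. Of the 25, 5 fell without WT replicate 5 housed apart.

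Among 37 tested partners of XIAP and genes of cell death, 1 passed, close to the 2.06% called of all tested genes. The call is thus a result about that gene and not about the list. Apaf1 (chr10:90989311-91082770, minus strand), the scaffold of the apoptosome that activates caspase 9, read between 5.95 and 6.37 in the 6 WT mice housed apart (median 6.17), and 6.10, 5.91, 5.98 and 5.84 in the 4 Xiap-/- mice housed apart. It read 6.48, 6.43, 6.38, 6.46 and 6.34 in the co-housed WT mice and 6.03, 6.07, 6.09, 6.02 and 6.05 in the co-housed Xiap-/- mice. The co-housed groups were narrow and separate, and the groups housed apart overlapped. The averaged difference of Apaf1 was -0.28 ± 0.06 (SE), from -0.20 housed apart and -0.37 co-housed (limma adjusted p = 0.0195). The median of the list was -0.04, with 15 members above 0 and 22 below, and without WT replicate 5 housed apart 2 rose and 4 fell. None of the 25 tested interferon-stimulated genes passed at an adjusted p under 0.05 in limma (median -0.03), and 1 rose without that library.

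Of the genes of antioxidant defence, glutathione peroxidase and glutathione reductase fell and catalase rose. Gpx2 (chr12:76792333-76795554, minus strand), the glutathione peroxidase typical of the gut epithelium, read between 9.48 and 10.70 in the 6 WT mice housed apart (median 10.17), and 9.38, 9.08, 9.17 and 9.22 in the 4 Xiap-/- mice housed apart. It read 10.45, 10.38, 10.46, 10.45 and 10.33 in the co-housed WT mice and 9.63, 10.20, 10.08, 9.90 and 9.82 in the co-housed Xiap-/- mice. All Xiap-/- mice were below all WT mice in each housing, which was so for 4 of the 9521 tested genes in either direction (0.042%). The averaged difference was -0.68 ± 0.13 (SE), from -0.87 housed apart and -0.49 co-housed (limma adjusted p = 0.0152), and -0.74 without WT replicate 5 housed apart, which was the lowest WT mouse. Gsr, which regenerates reduced glutathione, had an averaged difference of -0.40 ± 0.08 (SE), from -0.60 housed apart and -0.20 co-housed (limma adjusted p = 0.0194). In the other direction, Cat, the peroxisomal catalase, differed by 0.39 ± 0.10 (SE, limma adjusted p = 0.0359) and Nfe2l2, which encodes the transcription factor NRF2, by 0.26 ± 0.06 (SE, limma adjusted p = 0.0297). The list held 27 tested genes, of which these 2 fell and 2 rose, and its median was 0.06. The calls of Cat and Nfe2l2 held in 9 of 20 and 13 of 20 fits that left out 1 library. Cat was not alike, at 0.55 housed apart and 0.23 co-housed. In the list 3 fell and 4 rose without WT replicate 5 housed apart.

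The other 3 genes whose genotypes did not overlap in either housing were chosen after their values were seen. Tpm3, a tropomyosin of the actin skeleton, differed by -0.26 ± 0.07 (SE), Trp53inp2, a regulator of autophagy and transcription, by -0.23 ± 0.06 (SE), and Matk, a kinase that restrains Src-family kinases, by 0.25 ± 0.06 (SE), with limma adjusted p of 0.0359, 0.0297 and 0.0359. Their calls held in 9, 13 and 8 of the 20 fits that left out 1 library. Trp53inp2 read between 5.43 and 5.65 in the 6 WT mice housed apart (median 5.47), and 5.32, 5.22, 5.13 and 5.17 in the 4 Xiap-/- mice housed apart. It read 5.67, 5.53, 5.44, 5.44 and 5.49 in the co-housed WT mice and 5.17, 5.31, 5.41, 5.38 and 5.35 in the co-housed Xiap-/- mice. The gaps between the genotypes were narrow, in co-housed mice 5.41 against 5.44. In a single housing the genotypes did not overlap for 178 genes in mice housed apart (1.87%) and for 294 in co-housed mice (3.09%), and 37 and 61 of the 196 called genes were among them. Without WT replicate 5 housed apart the count over both housings was 26, and leaving out other libraries gave 4 to 17.

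**Figure D2:**
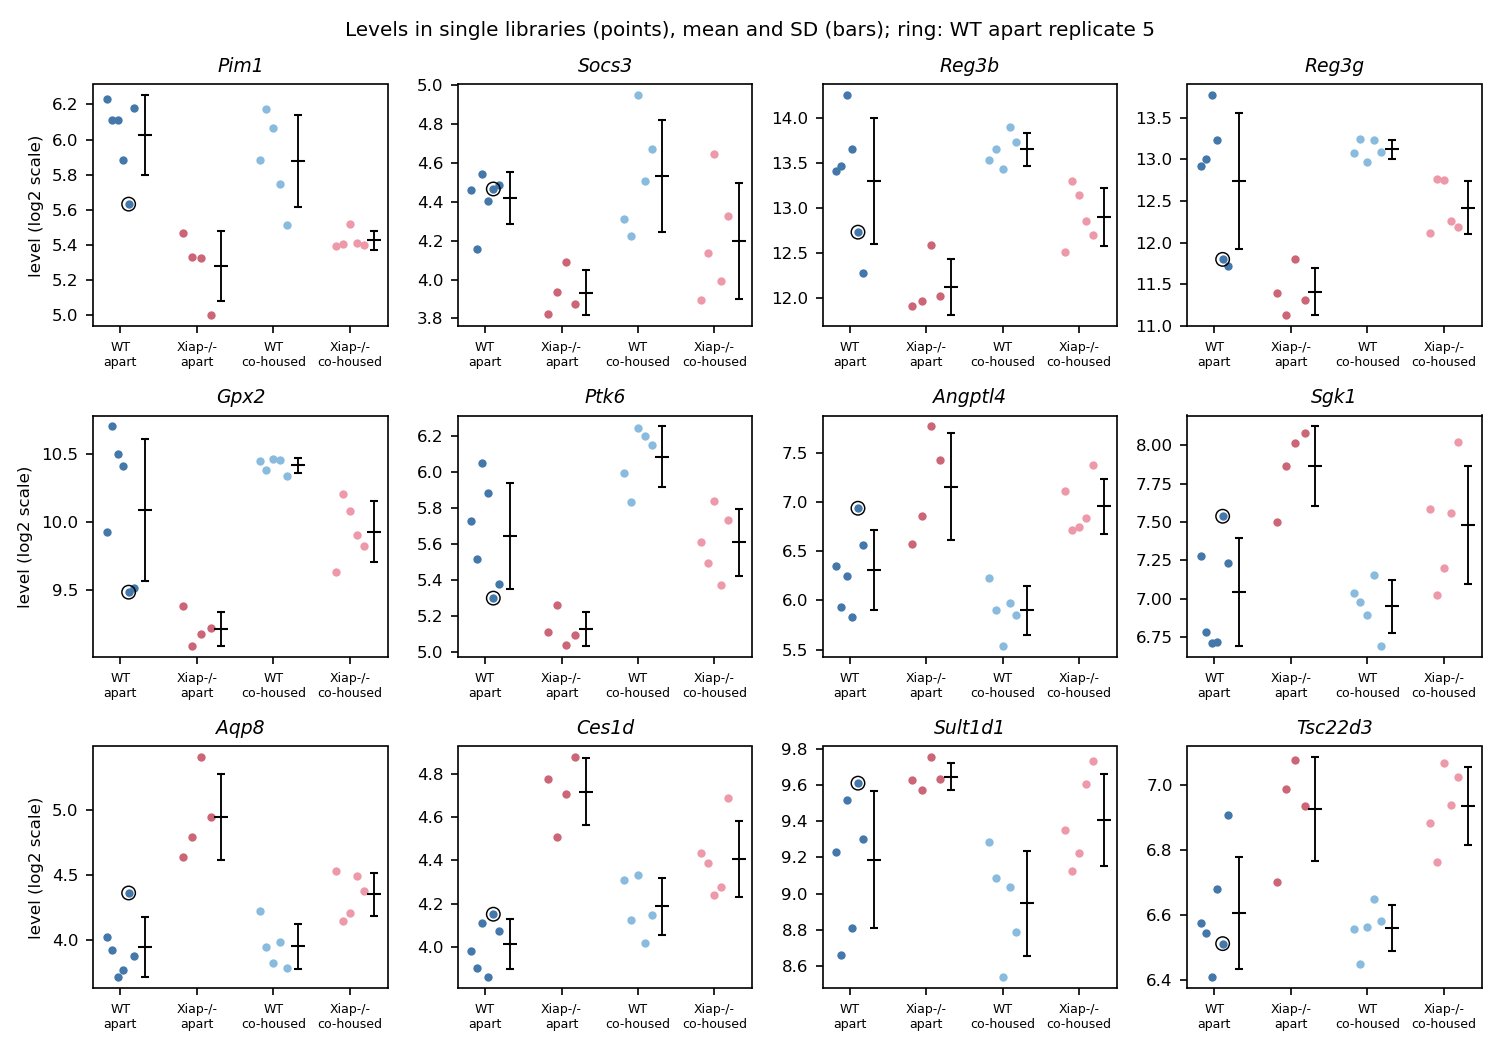
Level (log2 scale) of 12 genes in each library, by group, with the mean and SD beside the points and WT replicate 5 housed apart ringed. Pim1, Socs3, Reg3b, Reg3g, Gpx2 and Ptk6 were lower in Xiap-/- mice of both housings on average, and Angptl4, Sgk1, Aqp8, Ces1d, Sult1d1 and Tsc22d3 higher.

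The kinase gene Ptk6, the transcription factor gene Tcf7l2 and Raph1 fell by nearly the same amount in both housings, a grouping made after their values were seen. Ptk6 (chr2:181193721-181202789, minus strand), an intracellular tyrosine kinase of differentiated gut epithelium, read between 5.30 and 6.05 in the 6 WT mice housed apart (median 5.62), and 5.11, 5.26, 5.04 and 5.09 in the 4 Xiap-/- mice housed apart. It read 6.00, 5.83, 6.24, 6.20 and 6.15 in the co-housed WT mice and 5.61, 5.49, 5.84, 5.37 and 5.73 in the co-housed Xiap-/- mice. WT and Xiap-/- mice were separate when housed apart, by 5.26 against 5.30, and overlapped by 1 mouse of each genotype when co-housed. On average Ptk6 differed by -0.49 ± 0.08 (SE), from -0.51 housed apart and -0.47 co-housed (limma adjusted p = 0.00237). The housings differed in it by 0.04 (95% interval -0.30 to 0.38). It was the 1 called gene of 14 tested in the list for EGF receptor signalling, where 12 were below 0 (median -0.08) and 2 fell without WT replicate 5 housed apart.

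Tcf7l2, the main transcription factor of Wnt signals in the gut, read 7.53, 7.67, 7.72, 7.51 and 7.44 in the co-housed WT mice and 7.14, 7.32, 7.30, 6.97 and 6.91 in the co-housed Xiap-/- mice, without overlap. Its averaged difference was -0.47 ± 0.10 (SE), from -0.49 housed apart and -0.44 co-housed (limma adjusted p = 0.0191). In the list of stem cell and Wnt genes 1 of 23 rose, Myc, at 0.27 ± 0.07 (SE, limma adjusted p = 0.0427, held in 7 of 20 fits that left out 1 library), and 0 fell, while without WT replicate 5 housed apart 2 rose and 2 fell. Raph1, which guides actin at the cell's leading edge, and Unc5cl, a death domain protein that can activate NF-kB, differed by -0.36 ± 0.07 (SE) and -0.39 ± 0.08 (SE) and held in all 20 such fits. Raph1 was at -0.37 housed apart and -0.34 co-housed, and Unc5cl at -0.31 housed apart and -0.48 co-housed. The membrane protein stomatin (Stom) differed by -0.48 ± 0.11 (SE), the acyltransferase Agpat4 by -0.36 ± 0.09 (SE) and Themis3 by -0.41 ± 0.11 (SE), with limma adjusted p of 0.0297, 0.0365 and 0.0497. These 3 were less stable, holding in 13 of 20, 7 of 20 and 4 of 20 fits, and of them Agpat4 was at -0.47 housed apart and -0.26 co-housed. Muc13, a mucin of the apical membrane, was the 1 called gene of 20 tested goblet cell genes, at -0.30 ± 0.07 (SE) from -0.39 housed apart and -0.21 co-housed (limma adjusted p = 0.0347, held in 11 of 20 fits). Of the 20, 4 rose and 1 fell without WT replicate 5 housed apart.

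Sqle and Cyp51, enzymes of the late steps of cholesterol synthesis, differed by -0.32 ± 0.07 (SE) and -0.25 ± 0.06 (SE, limma adjusted p = 0.0233 and 0.0297), with most of the difference in mice housed apart (-0.44 against -0.21, and -0.42 against -0.08). Of 24 tested genes in the list for cholesterol supply, 3 fell and 0 rose, 19 were below 0 and the median was -0.12. Of the 24, 6 fell without WT replicate 5 housed apart.

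Among the genes that rose, the largest difference was that of Angptl4, which encodes a secreted inhibitor of lipoprotein lipase that PPAR transcription factors and fasting induce. Angptl4 (chr17:33773750-33781830, minus strand) read between 5.83 and 6.93 in the 6 WT mice housed apart (median 6.30), and 6.57, 6.86, 7.76 and 7.42 in the 4 Xiap-/- mice housed apart. It read 6.22, 5.90, 5.53, 5.98 and 5.86 in the co-housed WT mice and 7.11, 6.71, 6.74, 6.84 and 7.37 in the co-housed Xiap-/- mice. Every co-housed Xiap-/- mouse was above every co-housed WT mouse, and in mice housed apart WT replicate 5 (6.93) lay above 2 of the 4 Xiap-/- mice. The averaged difference of Angptl4 was 0.95 ± 0.16 (SE), from 0.84 housed apart and 1.06 co-housed (limma adjusted p = 0.0129), and 1.01 without WT replicate 5 housed apart. It passed in neither housing alone (adjusted p = 0.107 and 0.097).

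Of 34 tested PPAR targets and genes of fatty acid oxidation, 4 rose and 1 fell, 30 were above 0 and the median was 0.15. Besides Angptl4, the peroxisomal thiolase Acaa1b differed by 0.39 ± 0.09 (SE), the peroxisomal enzyme Ehhadh by 0.34 ± 0.09 (SE) and the mitochondrial isomerase Eci1 by 0.39 ± 0.08 (SE), with limma adjusted p of 0.0306, 0.0359 and 0.0194. Eci1 was not alike, at 0.54 housed apart and 0.23 co-housed. The member that fell was the receptor gene Ppard, at -0.34 ± 0.09 (SE, limma adjusted p = 0.0436). The calls of Acaa1b, Ehhadh and Ppard held in 14 of 20, 7 of 20 and 6 of 20 fits that left out 1 library. Of the 34, 15 rose and 1 fell without WT replicate 5 housed apart.

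Sgk1 and Tsc22d3, both of which glucocorticoids are known to induce, rose alike in both housings. Sgk1 (chr10:21882184-21999903, plus strand), a kinase that stimulates sodium uptake, read between 6.71 and 7.54 in the 6 WT mice housed apart (median 7.01), and 7.50, 7.86, 8.01 and 8.08 in the 4 Xiap-/- mice housed apart. It read 7.04, 6.98, 6.89, 7.15 and 6.69 in the co-housed WT mice and 7.59, 7.03, 7.20, 7.56 and 8.02 in the co-housed Xiap-/- mice. The groups overlapped in both housings, housed apart through WT replicate 5 alone. Averaged over both housings, Sgk1 differed by 0.67 ± 0.13 (SE), from 0.82 housed apart and 0.53 co-housed (limma adjusted p = 0.016). Tsc22d3, the glucocorticoid-induced leucine zipper, read 6.55, 6.45, 6.56, 6.65 and 6.58 in the co-housed WT mice and 6.88, 6.76, 7.06, 6.94 and 7.02 in the co-housed Xiap-/- mice, without overlap, and differed by 0.32 housed apart and 0.37 co-housed. Its averaged difference was 0.35 ± 0.07 (SE, limma adjusted p = 0.00854), and both genes held in all 20 fits that left out 1 library. Tsc22d1, of the same family, differed by 0.37 ± 0.09 (SE, limma adjusted p = 0.0358, held in 9 of 20), and the stress-induced Ndrg1 by 0.36 ± 0.07 (SE, limma adjusted p = 0.0157). These genes were not a list of their own, and the grouping was made after their values were seen. Of the list of immediate early genes, in which Sgk1 also stands, Sgk1 and Myc rose among 20 tested and the median was -0.0042.

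Among enzymes that process drugs, steroids and dietary compounds, 9 rose in 2 lists and 0 fell. Of 36 tested carboxylesterases and other phase I enzymes, which oxidise or hydrolyse their substrates, 7 rose and 0 fell, 32 were above 0, and the medians were 0.34 housed apart, 0.15 co-housed and 0.26 on average. Of these 7, Ces1f and the monoamine oxidase Maoa were alike in both housings, at 0.30 ± 0.07 (SE) and 0.34 ± 0.08 (SE). Ces1d (chr8:93166068-93197838, minus strand) had the smallest p of the list. It read between 3.86 and 4.15 in the 6 WT mice housed apart (median 4.03), and 4.78, 4.51, 4.71 and 4.88 in the 4 Xiap-/- mice housed apart. It read 4.31, 4.13, 4.33, 4.02 and 4.15 in the co-housed WT mice and 4.44, 4.39, 4.24, 4.28 and 4.69 in the co-housed Xiap-/- mice. The groups were separate in mice housed apart and overlapped in co-housed mice. Averaged over both housings, Ces1d differed by 0.46 ± 0.07 (SE), from 0.70 housed apart and 0.22 co-housed (limma adjusted p = 0.000154). Aadac, a lipase-like deacetylase, differed by 0.53 ± 0.10 (SE), Aldh1a1, which makes retinoic acid, by 0.44 ± 0.11 (SE), Adh1 by 0.36 ± 0.09 (SE) and Ces1g by 0.31 ± 0.06 (SE). The calls of Ces1f, Maoa, Aldh1a1 and Adh1 held in 12, 12, 7 and 12 of the 20 fits that left out 1 library. Ces1g reached the minimum level only through the Xiap-/- mice housed apart, where it was highest, with a mean of 3.29 over the other 16 libraries against the minimum of 3.32. The Ces1 genes are near-identical neighbours, and how their reads were split is not known here.

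All 25 tested conjugation enzymes, which attach sulfate, glutathione or glucuronic acid, were above 0 on average, with a median of 0.19, and 2 passed. Sult1d1 (chr5:87554645-87569027, minus strand), a sulfotransferase, read between 8.66 and 9.61 in the 6 WT mice housed apart (median 9.27), and 9.63, 9.57, 9.75 and 9.64 in the 4 Xiap-/- mice housed apart. It read 9.29, 9.09, 8.54, 9.04 and 8.79 in the co-housed WT mice and 9.35, 9.12, 9.22, 9.61 and 9.73 in the co-housed Xiap-/- mice. The ranges overlapped in both housings, and WT replicate 2 housed apart and WT replicate 3 co-housed were the lowest. Averaged over both housings, Sult1d1 differed by 0.46 ± 0.12 (SE), from 0.46 housed apart and 0.46 co-housed (limma adjusted p = 0.0365), and the housings differed in it by 0.00 (95% interval -0.47 to 0.48). Its call held in 8 of 20 fits that left out 1 library. Mgst1, a membrane-bound glutathione transferase, differed by 0.38 ± 0.10 (SE, limma adjusted p = 0.0375, held in 7 of 20). Without WT replicate 5 housed apart 12 of the 36 phase I and 10 of the 25 conjugation enzymes rose, and 0 fell in either list.

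Further genes that rose alike included steroid and amino acid enzymes. Akr1c14, which reduces steroids, read between 4.66 and 5.46 in the 6 WT mice housed apart (median 4.88), and 5.50, 5.46, 5.34 and 5.16 in the 4 Xiap-/- mice housed apart. It read 4.97, 4.87, 4.72, 4.65 and 4.74 in the co-housed WT mice and 5.39, 4.90, 5.20, 5.12 and 5.40 in the co-housed Xiap-/- mice. Over both housings Akr1c14 differed by 0.40 ± 0.08 (SE), from 0.39 housed apart and 0.41 co-housed (limma adjusted p = 0.0194). Its relative Akr1c19 differed by 0.36 ± 0.09 (SE, limma adjusted p = 0.0297). Cth, which makes cysteine from cystathionine, read 7.29, 7.28, 7.29 and 7.32 in the Xiap-/- mice housed apart, all above the highest WT mouse (7.17), and differed by 0.38 ± 0.08 (SE) on average (limma adjusted p = 0.0152). Rheb, the GTPase that activates mTORC1, differed by 0.40 ± 0.09 (SE), the hydrolase Cmbl by 0.37 ± 0.09 (SE), the histone Hist1h2bc by 0.37 ± 0.10 (SE), the lectin Cd302 by 0.35 ± 0.08 (SE) and 1810011O10Rik by 0.41 ± 0.08 (SE). Their limma adjusted p were 0.0195, 0.0336, 0.0408, 0.0271 and 0.00587. Of these, Cmbl and Hist1h2bc held in 11 of 20 and 5 of 20 fits that left out 1 library, and Akr1c19 in 13 of 20.

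**Figure D3:**
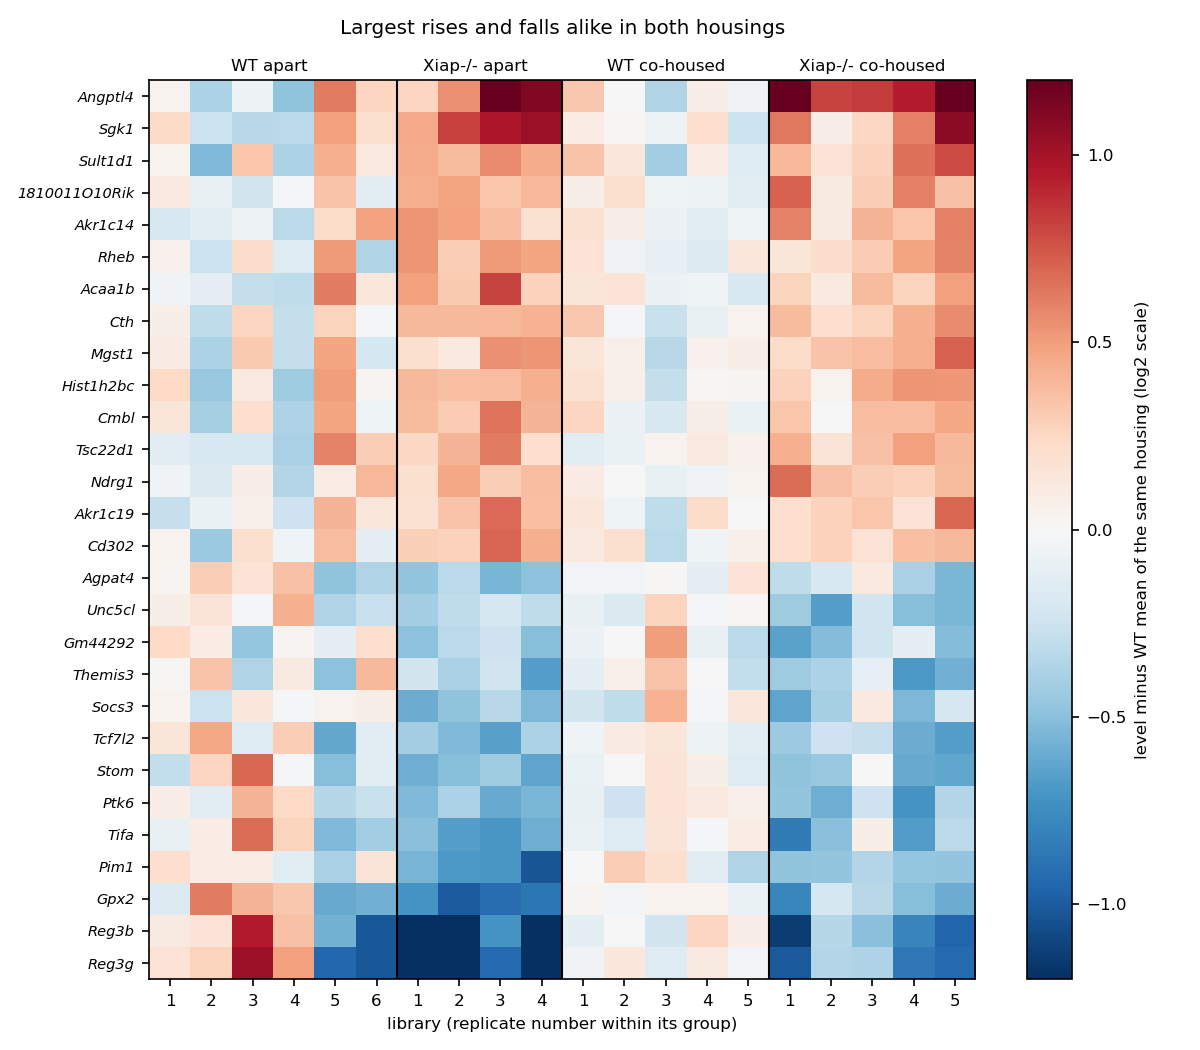
Level of 28 genes alike in both housings, 15 with the largest rise and 13 of those with the largest fall, in each of the 20 libraries, as the difference from the WT mean of the same housing (colour, log2 scale, saturating at the ends of the scale). The rows were chosen by these differences, so the contrast between genotypes is a description, and WT replicate 5 housed apart shows the colours of the Xiap-/- mice in many rows.

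For 64 called genes the smaller difference was under 0.5 of the larger, which does not by itself show that the housings differed, and the interaction passed adjustment for 1 of them. Hspa1b (chr17:34956436-34959238, minus strand), an inducible heat shock protein of the HSP70 family, read between 3.03 and 3.45 in the 6 WT mice housed apart (median 3.26), and 3.25, 3.33, 3.33 and 3.64 in the 4 Xiap-/- mice housed apart. It read 3.18, 3.21, 3.10, 3.27 and 3.19 in the co-housed WT mice and 4.47, 4.30, 4.35, 4.00 and 5.00 in the co-housed Xiap-/- mice. The rise was thus seen in co-housed mice, where the groups were far apart, while the groups housed apart overlapped. The averaged difference of Hspa1b was 0.69 ± 0.08 (SE) from 0.14 housed apart and 1.23 co-housed (limma adjusted p = 3.21e-05), and the interaction was 1.10 (95% interval 0.76 to 1.43), with a limma adjusted p of 0.00254. Hspa1b reached the minimum of 3.32 only through the co-housed Xiap-/- mice, since its mean over the other 15 libraries was 3.27. In a check added after seeing the data, with a minimum of log2 of 5, which those libraries also pass on average, the adjusted p of the interaction was 0.00242, and with no minimum 0.00179. Dnajb1, its partner chaperone, differed by 0.10 housed apart and 0.40 co-housed (limma adjusted p = 0.0432 for the average, held in 5 of 20 fits that left out 1 library). These 2 were the called members of 19 tested heat shock chaperones, of which 3 rose without WT replicate 5 housed apart. Hspa1b has a near-identical neighbour, Hspa1a, and its reads may be shared.

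Aqp8 (chr7:123462291-123468004, plus strand), a channel for water and hydrogen peroxide, had the larger difference in mice housed apart. It read between 3.72 and 4.36 in the 6 WT mice housed apart (median 3.90), and 4.64, 4.79, 5.41 and 4.95 in the 4 Xiap-/- mice housed apart. It read 4.22, 3.95, 3.82, 3.99 and 3.78 in the co-housed WT mice and 4.53, 4.15, 4.21, 4.49 and 4.38 in the co-housed Xiap-/- mice. The mice housed apart were separate by genotype and the co-housed mice overlapped by 1 WT mouse. Over both housings Aqp8 differed by 0.70 ± 0.09 (SE), from 1.00 housed apart and 0.40 co-housed (limma adjusted p = 4.47e-05), with an interaction of -0.60 (95% interval -0.96 to -0.24) whose adjusted p was 0.477. Sco2, a copper chaperone of cytochrome oxidase, had an averaged difference of 0.56 ± 0.14 (SE) made up of 1.12 housed apart and 0.00 co-housed (limma adjusted p = 0.0387, held in 8 of 20 fits that left out 1 library). Reg3a and Gm3776 also had most of their difference in mice housed apart, at 1.04 housed apart and 0.16 co-housed and 0.81 housed apart and 0.12 co-housed. The interactions of Sco2, Reg3a and Gm3776 did not pass adjustment either, with limma adjusted p of 0.393, 0.565 and 0.336. For these genes and for Aqp8 a difference between the housings is thus not shown.

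Genes of the mitochondrial genome and of the nuclear part of the respiratory chain lay mostly on opposite sides of 0, and with limma none passed over all 20 libraries. All 10 tested mitochondrially encoded genes were below 0 (median -0.27), the ribosomal RNAs mt-Rnr1 at -0.62 (adjusted p = 0.0666) and mt-Rnr2 at -0.42 (adjusted p = 0.0731) among them. Summed over 13 genes in the table, their level ran from 16.9 to 17.8 in WT and from 16.5 to 17.2 in Xiap-/- mice housed apart, and from 17.3 to 17.8 and 17.1 to 17.7 in co-housed mice. The share of mitochondrial transcripts can vary with RNA quality, and its part in the other results was not tested. Of 49 tested nuclear subunits 42 were above 0 (median 0.10), as were 37 of 48 tested ribosomal proteins (median 0.10). Of the ribosomal proteins 1 was called, close to the 2.06% called of all tested genes. It was Rps18, which rose by 0.31 (limma adjusted p = 0.0493). Among 20 cytochrome oxidase assembly factors Sco2 and Coa6 rose, the latter by 0.31 (adjusted p = 0.0497). The calls of Rps18 and Coa6 held in only 4 of 20 and 4 of 20 fits that left out 1 library. Without WT replicate 5 housed apart 4 of the 10 mitochondrially encoded genes fell. In the same fit 6 of the 49 nuclear subunits, 4 of the 20 assembly factors and 4 of the 48 ribosomal proteins rose, with 1 ribosomal protein falling. For the ribosomal proteins these counts are close to the share of all tested genes called without that library, 956 of 9521.

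Some markers of secretory cells passed, to be set beside the 2.06% called of all tested genes. Of 21 tested Paneth cell products 1 rose and 0 fell, with a median of 0.16. It was Pnliprp2, a lipase, at 0.45 ± 0.12 (SE) from 0.75 housed apart and 0.16 co-housed (limma adjusted p = 0.0497), a call that held in only 3 of 20 fits that left out 1 library. The products that rose numbered 3 without WT replicate 5 housed apart. Pnliprp2 is also made by the pancreas, and the summed level of 11 pancreatic acinar markers ran from 6.72 to 6.89 in Xiap-/- against 6.16 to 6.69 in WT mice housed apart, and from 6.28 to 6.46 against 6.18 to 6.41 in co-housed mice; its part in the result was not tested. Lysozyme (Lyz1) differed by 0.17 (adjusted p = 0.265), Defa24 by 0.05 (adjusted p = 0.789), the ribonuclease Ang4 by 0.36 (adjusted p = 0.0619) and the defensin-activating protease Mmp7 by -0.05 (adjusted p = 0.869), so none of these 4 passed. Proglucagon (Gcg), at 0.31 ± 0.08 (SE, limma adjusted p = 0.0365, held in 9 of 20), and Reg4 rose among 16 tested enteroendocrine genes (median 0.19, 4 rose without that library), and Rgs13, at 0.33 ± 0.08 (SE, limma adjusted p = 0.0297), among 9 tuft cell genes, all 9 of which were above 0.

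**Figure D4:**
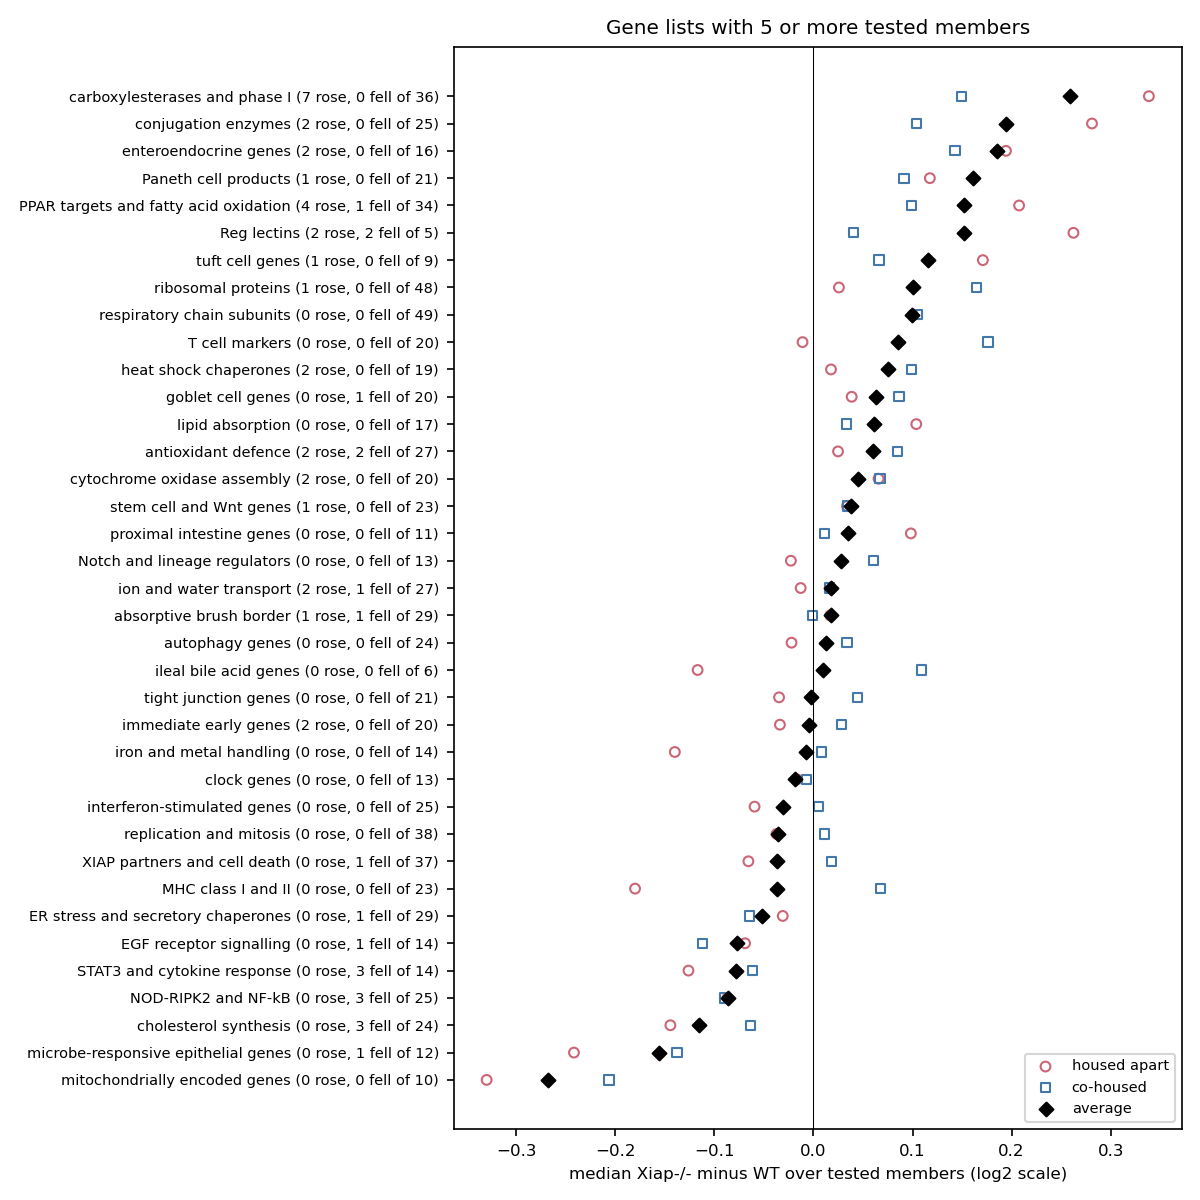
Median difference between Xiap-/- and WT mice (horizontal, log2 scale) over the tested members of each gene list with 5 or more of them, in mice housed apart (open circles), in co-housed mice (open squares) and on average (filled diamonds), with the counts of members that rose and fell. The phase I list has the highest averaged median, 0.26, and the mitochondrially encoded genes the lowest, -0.27.

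In the remaining epithelial lists, called genes are to be set beside the 2.06% called of all tested genes. The lists below with a called gene lay above that share, on small counts, and the excess was not tested. Sgk2 fell by 0.25 (limma adjusted p = 0.0459) and Aqp8 and Sgk1 rose among 27 genes of ion and water transport, where 4 rose and 1 fell without WT replicate 5 housed apart. Of 29 brush border genes the amino acid transporter Slc6a20a rose by 0.39 (adjusted p = 0.0433) and the peptidase Anpep fell, with a difference of -0.29 (adjusted p = 0.0497). The chaperone Hyou1 was the 1 called gene of 29 in the list for stress of the endoplasmic reticulum, with a difference of -0.24 (adjusted p = 0.0462), and 2 fell without that library. The calls of Sgk2, Slc6a20a, Anpep and Hyou1 held in 6 of 20, 4 of 20, 6 of 20 and 5 of 20 fits that left out 1 library. Sgk2 and Slc6a20a were not alike, at -0.40 housed apart and -0.09 co-housed and at 0.54 housed apart and 0.24 co-housed. With limma no gene passed among 38 tested genes of replication and mitosis, 23 of MHC classes I and II, 24 of autophagy, 13 clock genes, 21 tight junction genes, 13 Notch and lineage regulators, 17 of lipid absorption, 14 of iron and metal handling, 11 of the proximal intestine and 6 ileal bile acid genes. Without WT replicate 5 housed apart 1 or 2 genes passed in each of these lists except that of the proximal intestine, where 0 did. The cytokine gene Tnf was below the minimum, with levels from 0.72 to 0.96.

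Markers of other cells were present at varied levels. For T cells, which lie between the epithelial cells, 20 of 24 markers were tested and 0 passed, with medians of -0.01 housed apart and 0.18 co-housed. Their summed level ran from 10.4 to 11.3 in WT and 10.6 to 11.4 in Xiap-/- mice housed apart, and from 10.02 to 10.7 and 10.2 to 11.3 in co-housed mice. Only 4 B and plasma cell, 4 myeloid, 1 stromal, 1 blood and 0 glial markers reached the minimum, and 0 of them passed (1 myeloid marker without WT replicate 5 housed apart). Of the hepatocyte markers tested, Ttr rose by 0.26 (limma adjusted p = 0.0359), from 0.42 housed apart and 0.10 co-housed. Cps1, which the small intestine also makes, differed by 0.05 (limma adjusted p = 0.69).

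The single housings share no mice, but both differences were tested in the same model, with a shared estimate of each gene's spread. A small spread thus favours a small p in both housings. The counts below that rest on an unadjusted p under 0.05 in the other housing are therefore not independent of the calls. Of the 43 genes called in mice housed apart, 36 had the same sign in co-housed mice and 9 also had an unadjusted p under 0.05 there, against 8.60% of all tested genes that had the same sign in both housings and such a p co-housed. Of the 3 genes called in co-housed mice, 2 had the same sign housed apart and 0 also had such a p. Across all tested genes the 2 sets of differences correlated at r = 0.373, a description over genes, which are not independent.

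The number of called genes depended on single libraries. It ran from 36, without co-housed Xiap-/- replicate 5, to 956, without WT replicate 5 housed apart, and 31 of the 196 genes were called in all 20 fits that left out 1 library. Among the 31 were Pim1, Ptk6, Gpx2, Reg3b, Socs3, Tcf7l2, Raph1, Unc5cl and Gsr of the genes that fell, and Angptl4, Sgk1, Tsc22d3, Ndrg1, Akr1c14, Cth, Aadac, Ces1d, Ces1g, Eci1, Reg4, Aqp8 and Hspa1b of those that rose. In all, 62 were called in at least 15 of these fits, and 23 in fewer than 5.

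**Figure D5:**
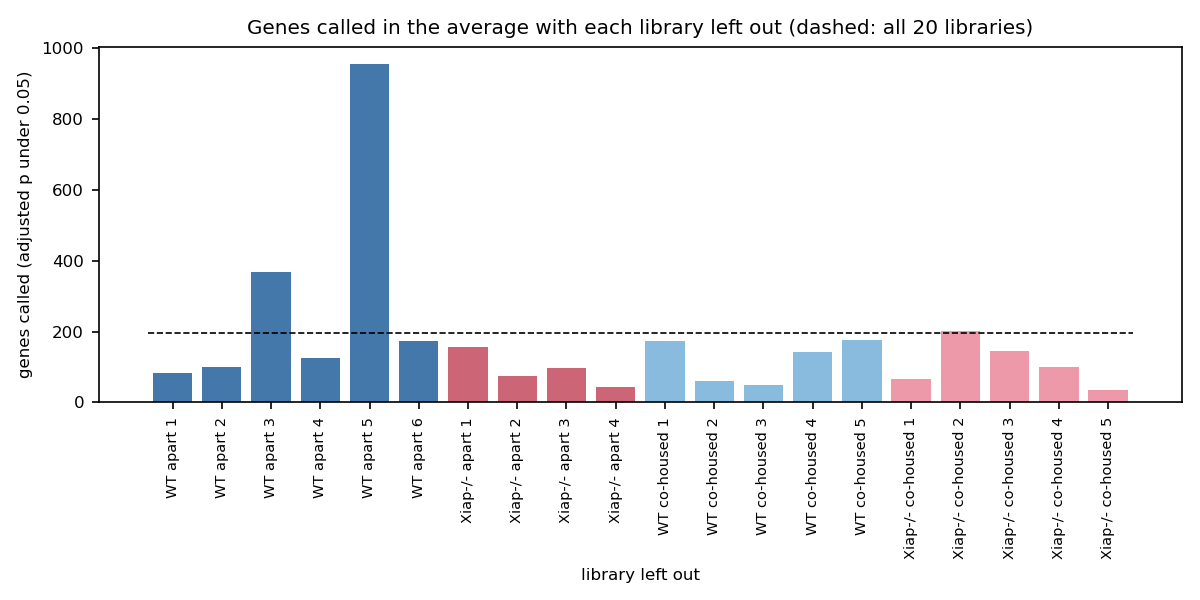
Number of genes called in the averaged difference (vertical) when each library in turn is left out (horizontal, coloured by group), with the count of 196 from all 20 libraries dashed. The bar for WT replicate 5 housed apart reaches 956, and that for co-housed Xiap-/- replicate 5 is the lowest, at 36.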

How the data were processed

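The authors deposited normalized levels on a log2 scale, made with DESeq2 1.18.1 on build GRCm38.p6 per the submitters' processing notes. The transformation, aligner and counter are not given in the sources used here. Per the labels' protocols, 3' ends of polyadenylated RNA were sequenced with molecular identifiers. Depth per library is unknown, so no counting interval is given, and the share of rare genes (mean below -3) more than 0.015 above their own median served as a proxy.

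The values were used as they stand, without a pseudocount, in R 4.3.3 with limma 3.58.1. Genes with a mean of at least log2 of 10 were fitted with 4 group means over 20 libraries (lmFit, eBayes with trend and robust moderation, 16 residual degrees of freedom). The contrast weighted both housings by 0.5, and p-values were Benjamini-Hochberg adjusted over all 9521 genes. Errors are SE from the model or SD over mice. All tests are two-sided and take each library as a separate, independent mouse, which the labels do not state, so p-values measure the spread between these libraries. Cages are not named, so cage and genotype cannot be told apart where mice were housed by genotype. Exact permutation of genotypes within housing was used for Xiap and for the proxy. The model was tested on simulated data. The labels do not say whether replicate numbers pair the libraries, and the main model did not use them.

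The members, 44 gene lists and tests were chosen with earlier results of these data known. Named genes are the 15 largest rises and 15 largest falls alike in both housings, the 5 called genes with the largest interactions, the 5 with the smallest p among those called in neither housing, up to 4 called members per list (otherwise the member with the smallest p and that with the highest mean, some not used here), and Xiap, Lyz1, Defa24, Ang4, Mmp7, Reg3a, Reg3b, Reg3g and Tnf. Other genes are named from counts after their values were seen, such as Ces1f, Maoa, Aldh1a1, Ppard and Cps1. Some of the genes this rule names are not reported here. Of the called genes, 18 had predicted or date-like names. Positions are from GENCODE M21 (97.8% of tested names matched), promoter windows from RefSeq. Alternatives were the minimum, moderation, array weights, other models, centring, quantile normalization, a replicate block, the depth proxy as covariate, and leaving out libraries.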

Additional observations from a re-analysis of the deposited data

Results flagged for a closer look

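Hspa1b was the 1 gene whose interaction passed adjustment, at 1.10 on the log2 scale (limma adjusted p = 0.00254), which does not show that other genes were equal in the housings. In it, 5 of 5 co-housed Xiap-/- mice were above all co-housed WT mice. It reached the minimum level of 3.32 only through these 5 mice (mean 3.27 over the other 15 libraries), and with a minimum of log2 of 5 the adjusted p was 0.00242.

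Of 292 sets of a named gene in a group, 18 had a library far from the others by Dixon's criterion, which chance alone meets in about 1 in 20 groups. Among genes that fell, the highest of their Xiap-/- group were Reg3b in replicate 3 housed apart (12.6) and, in co-housed replicate 3, Pim1 (5.52), Stom (6.78) and Anpep (11.1). Duoxa2 (4.34) in replicate 2 and Tpm3 (7.90) in replicate 3 were the lowest of the Xiap-/- mice housed apart. In WT mice housed apart, Socs3 was lowest in replicate 2 (4.16), Nfkbia highest in replicate 3 (9.04), Trp53inp2 highest in replicate 1 (5.65) and Myc lowest in replicate 6 (4.69). Among genes that rose, Reg4 was highest in replicate 2 of the Xiap-/- mice housed apart (8.75), Ndrg1 highest in co-housed Xiap-/- replicate 1 (8.15) and Cmbl lowest in co-housed Xiap-/- replicate 2 (7.63). In co-housed WT mice, Mgst1 was lowest in replicate 3 (9.39) and Ces1g highest in replicate 4 (3.38). The Paneth cell products Lyz1 and Ang4 were lowest together in co-housed Xiap-/- replicate 4 (11.7 and 8.73), and Lyz1 also in co-housed WT replicate 5 (11.5).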

How the results depend on the processing

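The main counts were 196 called genes, 132 of them alike, 9 genes called housed apart and followed co-housed, and 4 without overlap. With array quality weights the first 3 became 791, 456 and 86, and with the depth proxy as a covariate 6, 2 and 2. With the replicate block they became 582, 315 and 75. The labels do not say what the replicate numbers stand for. Of 9 same-numbered pairs, 3 correlated above 0.1 (r from -0.135 to 0.246) and 3 correlated best with their own number. So few and weak correlations cannot decide whether the numbers mark a pairing or a batch. With genotype alone in the model, 16 genes were called and 14 were alike, and without moderation by trend and robustness 15 were followed. With the libraries of the highest and lowest depth proxy left out, a choice made after seeing the data, 98 were called and 62 were alike. Asking for a smaller difference of at least 0.75 of the larger left 67 alike. Of the named genes, 63 of 73 lost or failed a call with the covariate, 59 with genotype alone and 0 with the replicate block, and none changed sign in any alternative run. The Xiap difference of -0.24 did not pass in limma over all genes (adjusted p = 0.0753).

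Leaving out 1 library gave 36 to 956 called, 21 to 508 alike, 3 to 148 followed, 4 to 26 without overlap, and Xiap differences of -0.28 to -0.20. The called count moved by over 1.5 times without WT housed apart replicates 1 (83), 2 (100), 3 (368), 4 (124) and 5 (956), Xiap-/- housed apart replicates 2 (74), 3 (98) and 4 (42), co-housed WT replicates 2 (59) and 3 (49), and co-housed Xiap-/- replicates 1 (65), 4 (100) and 5 (36). Of 68 named called genes, 44 lost their call without co-housed Xiap-/- replicate 5 and 0 without WT housed apart replicate 5. The other alternatives kept both counts within 1.5 times. The unknown depth limits the reading of genes near the minimum. The causes were not tested.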
